A study of Mus musculus with 3 samples.

Results

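The cytosolic ribosomal protein genes were taken as the gene symbols that start with Rpl or Rps followed by a number, with Rpsa, Rplp0, Rplp1 and Rplp2 added and with symbols of named pseudogenes and of the Rps6k kinases left out. This rule uses names and no measured value. It gave 90 of the 55401 listed genes, of which 54 carry large subunit names and 36 small subunit names. GENCODE M21 annotates 84 of them as protein coding, and Rps4l, Rps12l1, Rps3a2, Rps3a3, Rpl6l and Rpl32l as processed pseudogenes of one kind or another. Over all retained cells 84 of the 90 reached a mean of 50 CPM, the gene's counts scaled to a total of 1000000.

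Ribosomal proteins assemble with ribosomal RNA into the small subunit, which reads the messenger RNA, and the large subunit, which joins the amino acids. Their messenger RNAs are among the most abundant of a mammalian cell, and most start with a stretch of pyrimidines (a terminal oligopyrimidine, or TOP, start) through which growth signals control their translation. Lymphocytes raise ribosome production when they leave rest and divide.

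Single-cell RNA was counted in live CD45+ cells, the marker of white blood cells, sorted from YUMM1.7 melanomas (a mouse melanoma cell line). The cells of 7 mice per age, 4, 12 or 20 months old, were measured, and every mouse carried a tumour grown for 18 days from 500000 cells placed under the skin, so no tumour-free or untreated mouse is in the comparison. Strain, sex and genotype of the hosts, and whether the 7 mice were pooled before or after capture, are not given in the sources used here. Each age is 1 library, so age and library cannot be told apart, there is no replicate check on any age difference, and no p-value is given for one.

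The 3 libraries held 14393 to 14684 cells and 110371225 to 127850782 counts, and 13523 to 13803 cells per library were retained with median counts of 6726 to 7324.5 per cell. Of the cell barcodes, 2 to 4 were shared between any pair of libraries and 0 by all 3. Cells were clustered without the ribosomal protein genes and their named pseudogenes and the clusters named from marker lists, so the classes do not rest on the genes described. The 8 T cell markers summed to 7652 to 8937 CPM in T-like cells and 725 to 1126 CPM in monocyte/macrophage-like cells. The 16 monocyte and macrophage markers summed to 21858 to 24666 CPM in their own class and still to 6599 to 7173 CPM in T-like cells. One T-like sub-cluster (leading genes Cbfa2t2, Gm47854, Ly6a2 and Gm29683) came mostly from 12 months (97.3% of 1849 cells). The CD8 T-like share of counts and numbers of genes past the fold are given with and without it.

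Promoter entries of RefSeq on GRCm38.p6 matched 65 of the 90 genes with 77 start sites. The windows below run from 15 bases before to 15 bases after a listed start, so the second part of each lies in the first exon. They are shown because these genes had the largest or smallest difference with age, the largest difference between cell classes or, for Rps27, the highest count over all cells, described further on. Capitals mark the longest run of 5 or more C and T bases that begins with C, wherever it lies in the window. A TOP start needs such letters at the first transcribed base, which was not required here. The runs of Rps15a and Rps27l, 10 and 9 bases long from 15 and 12 bases before the listed start, end before it.
Rps21 (ENSMUSG00000039001.12; chr2:180257364-180257393, plus strand): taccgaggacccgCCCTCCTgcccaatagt
Rps4x (chrX:102189377-102189406, minus strand): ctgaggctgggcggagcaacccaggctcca
Rpl12 (chr2:32961697-32961726, plus strand): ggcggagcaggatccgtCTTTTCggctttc
Rps25 (chr9:44407699-44407728, plus strand): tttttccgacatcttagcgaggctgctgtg
Rpl35 (ENSMUSG00000062997.6; chr2:39005117-39005146, minus strand): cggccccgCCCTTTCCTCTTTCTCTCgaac
Rpl7l1 (ENSMUSG00000063888.7; chr17:46782642-46782671, minus strand): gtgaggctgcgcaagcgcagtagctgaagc
Rps27l (ENSMUSG00000036781.13; chr9:66946071-66946100, plus strand): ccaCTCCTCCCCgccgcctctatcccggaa
Rpl22l1 (ENSMUSG00000039221.10; chr3:28805493-28805522, plus strand): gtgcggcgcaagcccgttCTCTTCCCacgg
Rps15a (ENSMUSG00000008683.16; chr7:118116133-118116162, minus strand): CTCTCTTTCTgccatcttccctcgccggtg
Rpl13a (ENSMUSG00000074129.14; chr7:45128731-45128760, minus strand): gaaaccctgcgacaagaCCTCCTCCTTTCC
Rps27 (chr3:90213634-90213663, minus strand): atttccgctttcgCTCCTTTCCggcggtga
For Rps21 and Rps27l the first of 2 listed starts is shown. Such a run lay in 45 of the 77 windows of these genes, 58.4%, and in 36.4% of the 32851 windows of all genes. Over the whole promoter entry, which reaches from 250 bases before to 50 after the start, the letters CCGGAAG were found on either strand in 27 entries, 35.1%, against 8.86% of all entries. The letters AAGATGG were found in 12 entries, 15.6%, against 6.34% of all. The 2 motifs share the letters AAG, and no entry of these genes held them joined.

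Ribosomal protein transcripts took a larger share of the counts at 20 than at 4 months in T-like, NK-like, monocyte/macrophage-like and dendritic cell-like cells. In T-like cells their share of all counts was 14.7% at 4 months, 15.6% at 12 months and 17.1% at 20 months. In NK-like cells it was 15.8%, 15.9% and 17.8%. Monocyte/macrophage-like cells held 8.02%, 9.04% and 9.76%. Lymphoid cells thus stood above myeloid cells in every library, and the 20-month library was the highest of the 3 in each of these classes. The difference between 20 and 4 months was 2.44 percentage points (95% interval 2.42 to 2.45) in T-like cells, 2.0 points (1.97 to 2.03) in NK-like cells and 1.74 points (1.72 to 1.75) in monocyte/macrophage-like cells. These intervals are exact binomial and cover counting error only, not differences between animals or captures.

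Dendritic cell-like cells, 541, 439 and 586 of them, held 9.62%, 10.4% and 11.3%. Mature dendritic cell-like cells, which carry the markers of migrating dendritic cells, held 8.56%, 9.41% and 10.8% over 138, 170 and 103 cells. Regulatory T-like cells held 11.3%, 12.0% and 13.4%. In each of these 3 classes the 12-month library lay between the other two. Plasmacytoid dendritic cell-like cells, 49 to 61 per library, held 8.19%, 8.55% and 8.73%.

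CD8 T-like cells did not follow that order. Their share was 14.5% at 4 months, 14.4% at 12 months and 14.998% at 20 months, so the 12-month library was 0.062 points below the 4-month one. The medians over single cells were 14.2%, 14.5% and 15.4%, with the 4-month library lowest. Different sub-clusters made up this class, since the sub-cluster drawn almost wholly from the 12-month library belongs to it. That sub-cluster held 14.0%, 15.1% and 16.9%, on 27, 1799 and 23 cells. The sub-cluster with Pdcd1, Tox and Lag3 held 14.6%, 15.03% and 17.0%, and dividing cells of the class 14.4%, 13.7% and 14.6%. Without the sub-cluster drawn almost wholly from the 12-month library the class shares were 14.5%, 13.8% and 14.98%, and the 20-month library was again the highest. A further sub-cluster of this class, led by Dpf3, Sim1 and Sema5a, had 3, 21 and 64 cells and shares of 8.31%, 10.1% and 9.64%. It gave 23015 of 10797179 counts of the class at 4 months, 608916 of 21655571 at 12 and 2005036 of 16913947 at 20 months. Ribosomal protein genes gave 1913, 61388 and 193378 of its counts, and 1564438, 3124333 and 2536768 of those of the class. The class shares without it were not computed. Its median counts per cell were 8024, 18733 and 17467, against 6881.5, 5903 and 6294 in the class. Its leading genes Dpf3, Sim1, Sema5a and Slc34a2 are not among the markers used for T-like or CD8 T-like cells, so its name is uncertain.

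**Figure D1:**
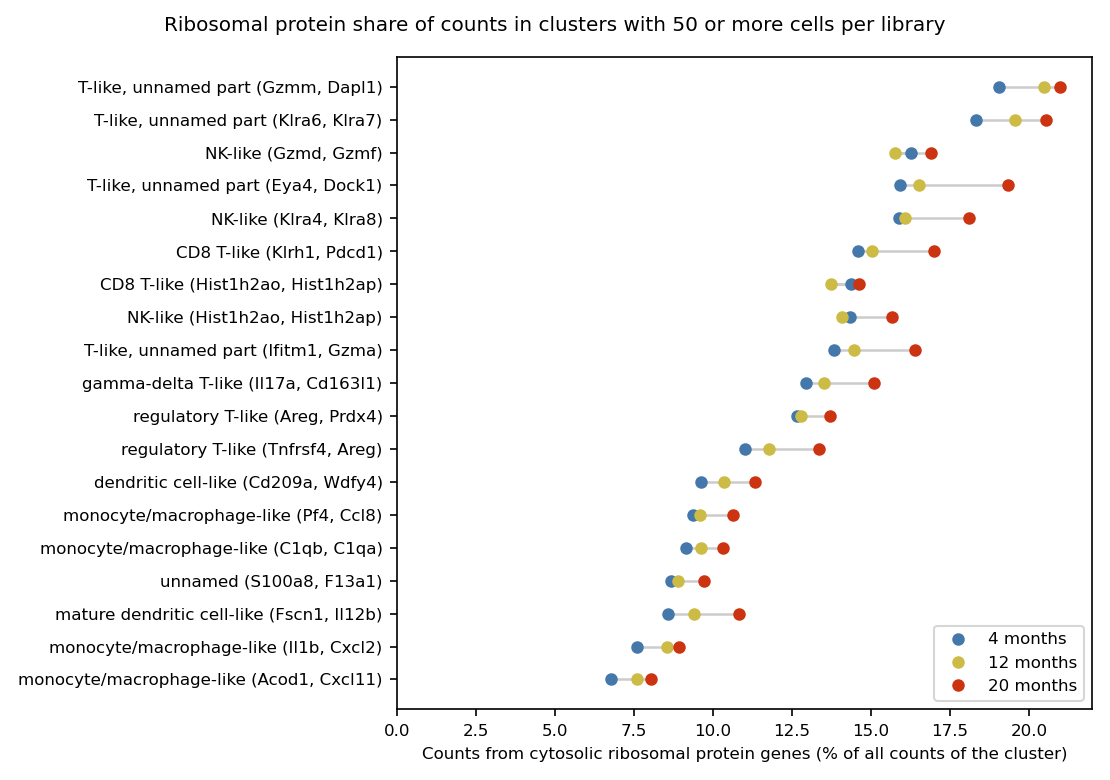
Share of counts from ribosomal protein genes (percent of all counts of the cluster, x axis) in each of the 19 clusters with at least 50 cells per library (rows, named by class and 2 leading genes), with 1 point per library at 4, 12 and 20 months. The 20-month point lies to the right of the 4-month point in all 19, by 0.254 to 3.40 percentage points.

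The same order held cluster by cluster. Of the 19 clusters with at least 50 cells in every library, 19 had a higher share at 20 than at 4 months, 19 a higher share at 20 than at 12 months and 16 a higher share at 12 than at 4 months. The plot of shares by cluster shows the spread between cell states to be wider than that between ages. The highest shares were in a T-like sub-cluster led by Gzmm, Dapl1 and Ccr7, with 19.1%, 20.5% and 20.98%, and in one led by Klra6, Klra7 and Klra1, with 18.3%, 19.6% and 20.5%. A CD8 T-like sub-cluster whose leading genes include Pdcd1, Tox and Lag3, receptors and a regulator of exhausted T cells, held 14.6%, 15.03% and 17.0%. Dividing CD8 T-like cells, led by histone genes, Ube2c and Birc5, held 14.4%, 13.7% and 14.6%, one of the few clusters with its lowest value at 12 months. Among myeloid clusters, macrophages with the complement genes C1qa, C1qb and C1qc held 9.14%, 9.62% and 10.3%, and those led by Pf4, Ccl8 and Ccl7 held 9.37%, 9.58% and 10.6%. The lowest shares were in cells led by Acod1, Cxcl11 and Cxcl9, genes of the interferon and inflammatory response, with 6.77%, 7.59% and 8.03%.

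Over all retained cells the share was 11.8%, 13.1% and 13.8%. With every class given the same part of the counts in each library it was 12.0%, 12.7% and 14.0%. The share also moved with depth within a library. The monocyte/macrophage-like cells with the fewest counts, the lowest of 4 equal groups by depth, held 6.79%, 7.89% and 8.79%, and those with the most held 9.10%, 9.85% and 10.5%. The lowest depth group of NK-like cells held 13.2%, 14.1% and 16.5% and the highest 16.7%, 16.8% and 18.3%. The 20-month library was above the 4-month library in every depth group of these classes and of T-like cells. In T-like cells the sub-cluster led by Dapl1 and Ccr7, which has the highest share, counted 411, 241 and 1917 cells. With sub-clusters weighted alike in every library the T-like difference at 20 months was 1.93 points, and with suspected doublets kept it was 1.48 points. When each library was clustered on its own the T-like difference at 12 months turned to −0.64 points. The NK-like difference at 12 months, 0.090 points, turned to −0.116 points among cells with at least 5000 counts and to −0.065 points with separate clustering.

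Several other measures moved with age in the same cells. The summed level of 12 early response and heat shock genes such as Fos, Jun and Dusp1, which respond to tissue handling, was 2341, 2385 and 1756 CPM in T-like cells. It was 4555, 5296 and 3288 CPM in monocyte/macrophage-like cells, and lowest at 20 months in both classes. The nuclear RNA Malat1 stood at 6696, 7300 and 5515 CPM in monocyte/macrophage-like cells. The mitochondrially encoded genes summed to 19472, 18616 and 21290 CPM there, highest at 20 months. Macrophages and T cells were captured together, and the T cell markers counted in monocyte/macrophage-like cells summed to 725, 1126 and 945 CPM. The part of these in the ribosomal protein shares was not tested.

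Gene by gene, most ribosomal protein genes were higher at 20 months in T-like, NK-like, monocyte/macrophage-like and dendritic cell-like cells, with Rps21, Rps4x and Rpl12 among the largest differences. A gene was counted as past the fold when its CPM differed by more than 1.2-fold at a mean of 50 CPM or more. This is a rule of size and not a test. In T-like cells 32 of 84 genes were higher past the fold at 20 than at 4 months and 0 were lower, against 8.61% and 13.3% of all genes tested. The 32 became 18 with suspected doublets kept and 20 with sub-clusters weighted alike. In NK-like cells 23 were higher and 0 lower, against 7.29% and 7.15%. In monocyte/macrophage-like cells 50 were higher and 1 lower, against 11.6% and 13.2%, and 29 were higher with sub-clusters weighted alike. In dendritic cell-like cells 37 were higher and 0 lower, against 10.5% and 13.4%. The median log2 ratio of the ribosomal protein genes was 0.22 in T-like, 0.19 in NK-like, 0.31 in monocyte/macrophage-like and 0.26 in dendritic cell-like cells, where that of all genes tested was −0.12, −0.07, −0.04 and −0.01. These 4 classes came from the same 3 libraries.

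At 12 months the differences were smaller. In monocyte/macrophage-like cells 8 of 84 genes were higher past the fold and 0 lower, against 7.06% and 10.4% of all genes. The count of higher genes is close to that background. The 8 became 0 with sub-clusters weighted alike and 3 with TMM scaling. Among them were Rpl22l1, Rps20, Rps6, Rpl13a, Rps12l1, Rpl3 and Rpl10a, named after their values were seen. In dendritic cell-like cells Rpl6l and Rpl10a were higher and 0 genes lower, against 7.01% and 7.21% of all. In T-like and NK-like cells 0 genes passed in either direction, against 4.98% higher and 6.6% lower in T-like and 4.19% and 2.49% in NK-like cells. The median log2 ratio at 12 months was 0.09 in T-like, 0.015 in NK-like, 0.18 in monocyte/macrophage-like and 0.12 in dendritic cell-like cells. The NK-like value turned to −0.0024, with 36 genes above and 48 below 0, under TMM scaling. The 12-month and 20-month ratios share the 4-month library.

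**Figure D2:**
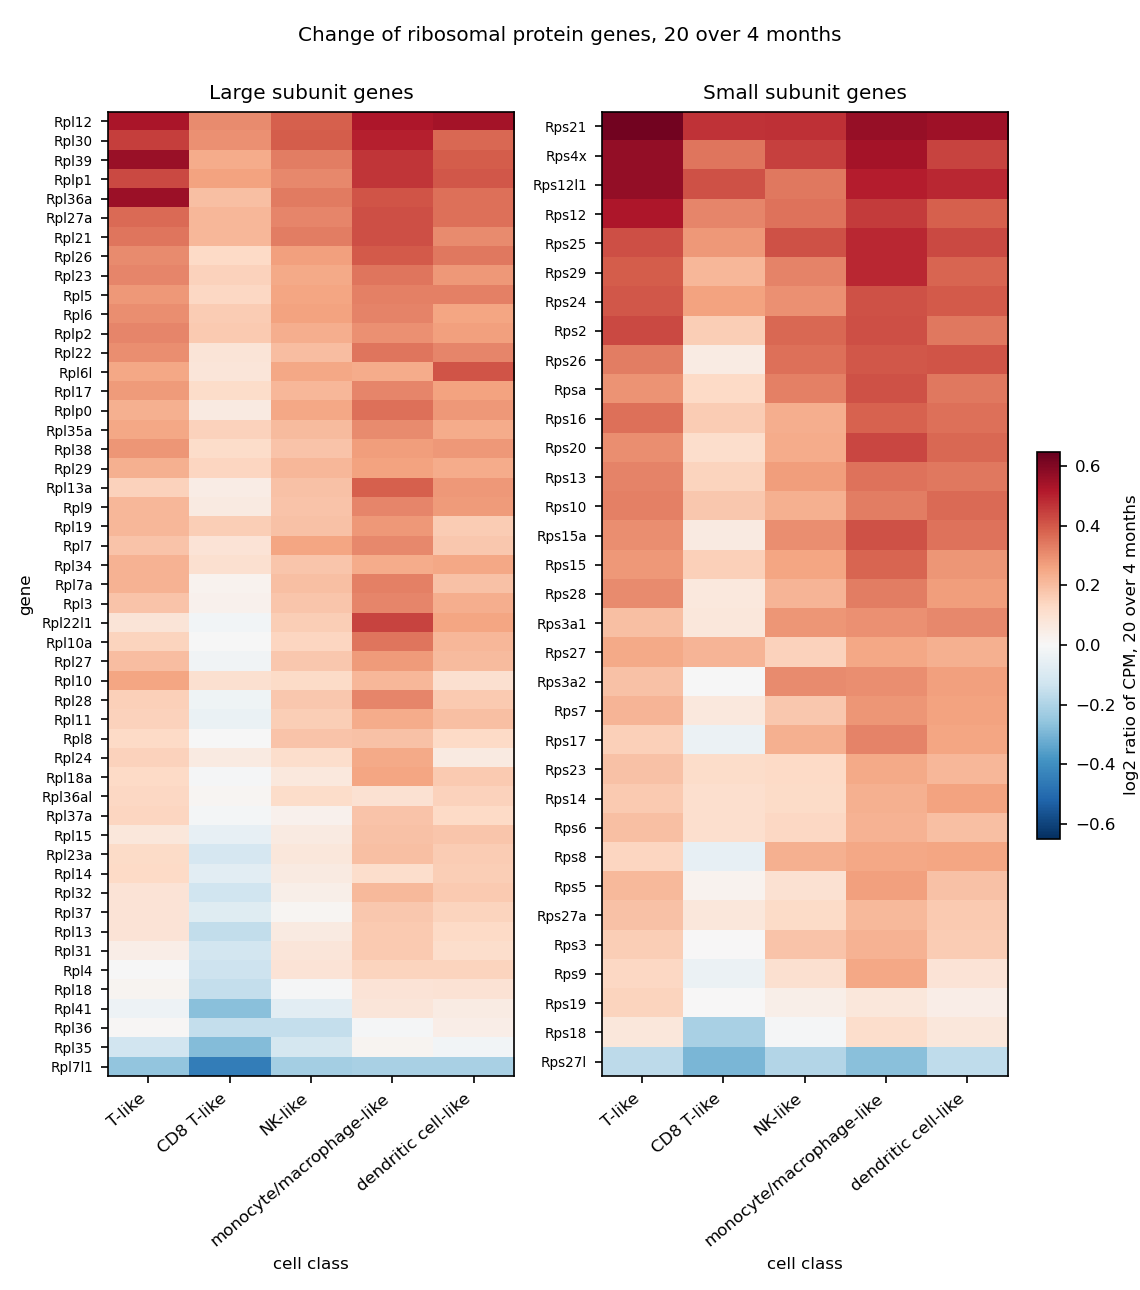
Log2 ratio of CPM at 20 over 4 months as a colour, red for higher and blue for lower at 20 months, for all but 1 of the 84 ribosomal protein genes at 50 CPM or more (rows, large subunit on the left and small subunit on the right) in 5 cell classes (columns). Most tiles are red, Rps21 is the deepest at 0.63 in T-like cells, and Rpl7l1 and Rps27l are blue in every column.

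Rps21, a protein of the small subunit, had the largest difference in T-like, CD8 T-like, NK-like and monocyte/macrophage-like cells. Its level was 1126, 1250 and 1741 CPM at 4, 12 and 20 months in T-like cells, a log2 ratio of 0.63 at 20 over 4 months. It was 1154, 1168 and 1606 CPM in NK-like cells (log2 0.48) and 612, 699 and 904 CPM in monocyte/macrophage-like cells (log2 0.56). The 20-month library stood well above both others, and no named pseudogene of Rps21 takes part of its counts. Rps4x, the X-linked gene of the small subunit protein eS4, stood at 1440, 1587 and 2136 CPM in T-like cells (log2 0.57). It stood at 1582, 1639 and 2152 CPM in NK-like cells and at 778, 929 and 1132 CPM in monocyte/macrophage-like cells, log2 ratios of 0.44 and 0.54. In each class the 4-month library was the lowest and the 20-month library the highest.

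Rpl12, a protein at the base of the stalk that binds elongation factors, was at 357, 426 and 515 CPM in monocyte/macrophage-like cells (log2 0.53). In T-like cells it was at 857, 947 and 1236 CPM, also a log2 ratio of 0.53. Rplp1, an acidic protein of that stalk, was at 2595, 2884 and 3498 CPM in T-like cells (log2 0.43) and at 1470, 1756 and 2028 CPM in monocyte/macrophage-like cells (log2 0.46). Both genes were thus ordered 4, 12, 20 months in both classes. Rps25, a small subunit protein, stood at 1447, 1493 and 1931 CPM in NK-like cells (log2 0.42). Rps12l1, annotated as a processed pseudogene, was low, 75.4, 88.2 and 112 CPM in T-like cells (log2 0.57). It followed Rps12, with 1158, 1281 and 1665 CPM there (log2 0.53), and how the counting divided reads between such copies is not given in the sources used here.

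The genes past the fold in all 4 classes at 20 months were 20 in number, and 51 passed in at least 1 class. In single classes 7.29% to 11.6% of all genes tested were higher past the fold. The share of all genes that passed in all 4 or in any class was not counted. These 20 were Rps21, Rps4x, Rpl12, Rplp1, Rps12l1, Rps12, Rps2, Rps13, Rps15a, Rps24, Rps25, Rps26, Rps29, Rpsa, Rpl21, Rpl26, Rpl27a, Rpl30, Rpl36a and Rpl39. Small subunit genes had the higher median in each class, 0.26 against 0.19 for large subunit genes in T-like cells, 0.23 against 0.18 in NK-like, 0.33 against 0.28 in monocyte/macrophage-like and 0.28 against 0.21 in dendritic cell-like cells. The counts of large over small subunit genes gave the same order, with ratios of 1.28, 1.25 and 1.21 at 4, 12 and 20 months in T-like cells, 1.30, 1.28 and 1.24 in NK-like cells and 1.24, 1.23 and 1.19 in monocyte/macrophage-like cells. So the balance of the subunits' transcripts moved with age in these libraries. This is the ratio of counts and not of proteins.

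A few genes went the other way. Rps27l, a paralog of Rps27 that p53 activates, stood at 568, 488 and 471 CPM in monocyte/macrophage-like cells (log2 −0.27), the only one past the fold downwards there. It stood at 324, 319 and 288 CPM in T-like cells (log2 −0.17) and 330, 304 and 289 CPM in NK-like cells (log2 −0.19). Rpl7l1, an Rpl7-like protein of ribosome assembly, stood at 102, 94.3 and 88.3 CPM in monocyte/macrophage-like cells, at 73.5, 72.2 and 61.5 CPM in T-like cells and at 85.2, 81.6 and 73.0 CPM in NK-like cells. In both genes the 20-month library was the lowest in these 3 classes, and they were the only 2 of the 84 below 0 in all 4 classes, where 76 were above 0. The same counts over all genes tested were not made. Rpl36 differed little, with 604, 670 and 601 CPM in monocyte/macrophage-like cells, and stood at 1325, 1265 and 1191 CPM in NK-like cells (log2 −0.15).

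Rpl35 has the longest pyrimidine run of the windows shown, 18 bases. It was at 1879, 1991 and 1722 CPM in T-like cells (log2 −0.13) and at 1054, 1201 and 1068 CPM in monocyte/macrophage-like cells, with the 12-month library highest in both. Across the tested genes with an entry, the ratio with age differed little between those with and without a run anywhere in a window. The median log2 ratio at 20 months was 0.23 in the 39 genes with a run and 0.22 in the 22 without one in T-like cells, and 0.31 in both in monocyte/macrophage-like cells. In NK-like cells the medians were 0.18 with and 0.20 without a run. GC content and length tracked the ratio weakly across the 81 genes with both values, with Spearman's rho for GC of −0.017 in T-like, −0.074 in NK-like and −0.079 in monocyte/macrophage-like cells. Genes are not independent replicates, and these are descriptions.

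In CD8 T-like cells 9 of 84 genes were higher past the fold at 20 months and 4 lower, against 9.54% and 16.6% of all genes tested. The count of higher genes is close to that background. The sub-cluster led by Dpf3, Sim1 and Sema5a gave 2005036 of the 16913947 counts at 20 months and 23015 of 10797179 at 4 months. Its share of ribosomal protein counts at 20 months was 9.64%, and its part in these ratios was not tested. The 4 lower genes were Rpl35, with 1888, 1820 and 1552 CPM (log2 −0.28), Rps27l, with 410, 329 and 334 CPM (log2 −0.30), Rpl7l1, with 82.1, 69.9 and 60.1 CPM (log2 −0.45), and Rpl41, with 4018, 3556 and 3324 CPM (log2 −0.27). Rps21 was still the highest of the ratios, with 1029, 1148 and 1427 CPM (log2 0.47), and Rps4x stood at 1459, 1474 and 1859 CPM (log2 0.35). The median was 0.07. Without the sub-cluster of the 12-month library 7 were higher and 4 lower at 20 months. At 12 months Rps27 was higher past the fold and Rps26 and Rps27l lower, 1 and 2 genes against 10.5% and 7.86% of all, and without that sub-cluster 0 genes passed in either direction.

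Regulatory T-like cells, marked by Foxp3, had 45 genes higher and 0 lower at 20 months, against 10.6% and 14.3% of all genes. At 12 months 2 were higher, Rps2 and Rps12l1, and 0 lower, against 7.77% and 10% of all. Their largest ratio was that of Rps2, with 226, 277 and 396 CPM (log2 0.81). Mature dendritic cell-like cells, the smallest class counted, had 62 higher and 1 lower at 20 months, against 17.5% and 23.8%. The lower one was Rpl7l1, with 81.4, 79.1 and 39.8 CPM. At 12 months 11 were higher and 0 lower, against 13.1% and 13%, so the higher count is close to its background. In this class Rps2 also had the largest ratio, with 163, 242 and 264 CPM (log2 0.70).

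Over all retained cells 33 genes were higher past the fold at 20 months and 0 lower, against 7.89% and 10.7% of all genes, and at 12 months 1 was higher and 0 lower, against 6.59% and 13.2%. The genes with the highest counts over all retained cells were Rps27, with 4116, 4608 and 4875 CPM, Rpl32, with 3619, 4000 and 3894 CPM, Rps29, with 3099, 3391 and 4096 CPM, Rpl41, with 3165, 3326 and 3150 CPM, and Rps14, with 2936, 3279 and 3321 CPM. These are counts from a kit that reads the 3′ end of transcripts. They are not levels per length, so no order between genes is drawn from them. Within these genes the ages differed in order. Rps27, Rps29 and Rps14 were highest at 20 months, while Rpl32 and Rpl41 were highest at 12 months.

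Counts of named pseudogenes, processed copies spread over the genome, had as a set a median difference with age near that of the genes themselves. They made up 2.23%, 2.51% and 2.56% of all counts, and 63 of the 90 genes had at least 1 of the 319 copies. In 23 genes over 25% of the family's counts lay in copies, as in Rpl35a (65.0%), Rps6 (58.7%), Rpl10 (55.5%) and Rps23 (51.1%), so the level of such a gene is uncertain. At 20 over 4 months 35 of 96 copies were higher past the fold in T-like cells and 39 of 81 in monocyte/macrophage-like cells, with 0 lower in both. Of all genes tested 8.61% were higher and 13.3% lower in T-like cells, and 11.6% and 13.2% in monocyte/macrophage-like cells. The medians of single copies were not set against those of their own parents. The medians of all tested copies, 0.20 and 0.26, stood beside 0.22 and 0.31 for the genes themselves. With copies added, the T-like difference in share was 2.85 points and that of monocyte/macrophage-like cells 2.02 points.

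**Figure D3:**
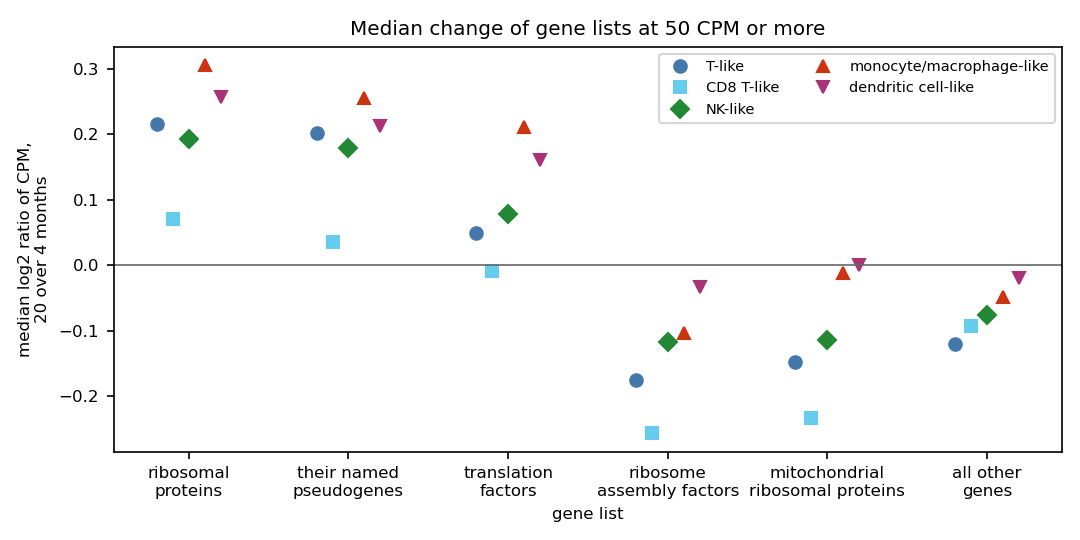
Median log2 ratio of CPM at 20 over 4 months (y axis) of ribosomal protein genes, their named pseudogenes, related gene lists and all other genes tested (x axis), with 1 point per cell class. The ribosomal protein points lie between 0.07 in CD8 T-like and 0.31 in monocyte/macrophage-like cells, and those of mitochondrial ribosomal proteins at or below 0.

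Other genes of the translation machinery differed with age to unequal extents. Fau, whose product is cut to give the small subunit protein eS30, stood at 1256, 1447 and 1664 CPM in monocyte/macrophage-like cells (log2 0.41) and had a log2 ratio of 0.37 in T-like cells. Rack1, a scaffold bound to the small subunit, stood at 733, 808 and 930 CPM there (log2 0.34). Of the TOP-start translation factors, 7 of 18 were higher past the fold and 0 lower in monocyte/macrophage-like cells (median 0.21), led by Eef1b2 with 203, 249 and 312 CPM (log2 0.62). In T-like cells 1 of 18 was higher and 0 lower (median 0.05), and in NK-like cells 3 of 19 and 0 (median 0.08). Of all genes tested 11.6% were higher and 13.2% lower in monocyte/macrophage-like, 8.61% and 13.3% in T-like and 7.29% and 7.15% in NK-like cells. The T-like count of higher factors does not exceed that background. The lists were chosen with earlier results of these data known.

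Ribosome assembly factors, which build the subunits in the nucleolus, and mitochondrial ribosomal proteins did not share the pattern by their medians. Of the assembly factors 0 of 8 were past the fold in monocyte/macrophage-like cells (median −0.10), 0 of 10 in NK-like cells (median −0.12), and in T-like cells 0 of 9 were higher and 1 lower (median −0.18). Of all genes tested 11.6% were higher and 13.2% lower in monocyte/macrophage-like, 7.29% and 7.15% in NK-like and 8.61% and 13.3% in T-like cells. At such shares, counts over 8 to 10 genes could hardly show a difference. Of the mitochondrial ribosomal proteins 0 of 43 were past the fold in monocyte/macrophage-like cells (median −0.01), and in T-like cells 0 of 45 were higher and 2 lower (median −0.15). Hosts of small nucleolar RNAs, which are noncoding transcripts with TOP starts, went with the ribosomal proteins in monocyte/macrophage-like cells, on few genes. All 4 tested in monocyte/macrophage-like cells were higher, among them Zfas1 with 300, 327 and 423 CPM (log2 0.50), and in T-like cells 2 of 6 were. Cell division genes summed to 2299, 2724 and 2485 CPM in T-like cells and resting T cell genes such as Tcf7 and Ccr7 to 746, 787 and 826 CPM, and their part in the T-like differences was not tested.

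Between cell classes a test was possible, since every library held each class. Counts were summed per library and class and tested with edgeR's quasi-likelihood test, with library as a block and Benjamini-Hochberg adjustment over all genes tested. The spread in this test is that between the 3 libraries, which differ in age. In CD8 T-like against monocyte/macrophage-like cells 80 of 89 ribosomal protein genes were higher and 4 lower at an adjusted p under 0.05, against 26.6% and 30.5% of all genes, with a median log2 difference of 0.61. Rps15a, a small subunit protein, stood at 3788, 3447 and 3940 CPM at 4, 12 and 20 months in CD8 T-like cells and 1210, 1389 and 1612 CPM in monocyte/macrophage-like cells, a log2 difference of 1.34 (SE 0.072, edgeR adjusted p = 4.57e-11). Rpl13a, a large subunit protein, stood at 2830, 3053 and 2928 CPM against 1033, 1285 and 1353 CPM, a log2 difference of 1.19 (SE 0.057, edgeR adjusted p = 1.12e-11). Neither gene's classes overlapped.

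**Figure D4:**
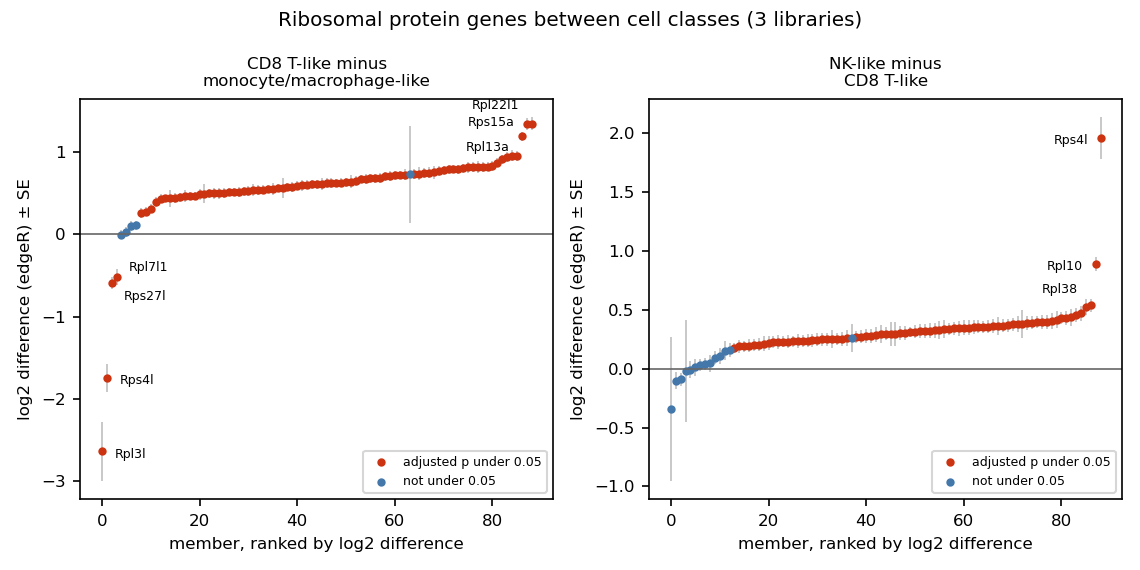
Log2 difference between 2 cell classes from edgeR (y axis, bars are the standard error) for the 89 ribosomal protein genes tested, ranked along the x axis, red where the adjusted p was under 0.05. In CD8 T-like minus monocyte/macrophage-like cells (left) 80 genes lie above 0 and passed and Rpl3l, Rps4l, Rps27l and Rpl7l1 passed below 0, and in NK-like minus CD8 T-like cells (right) 75 passed above 0.

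The 4 genes lower in CD8 T-like cells were all among the paralogs. Rps27l stood at 410, 329 and 334 CPM there against 568, 488 and 471 CPM in monocyte/macrophage-like cells, a log2 difference of −0.60 (SE 0.074, edgeR adjusted p = 2.13e-06). Rpl7l1 differed by −0.52 on the log2 scale (SE 0.10, edgeR adjusted p = 0.000249). Rps4l, which stood at 5.00, 3.93 and 2.78 CPM against 20.8, 11.3 and 7.57 CPM, differed by −1.75, and Rpl3l, at most 1.02 CPM against 3.76 to 4.33 CPM, by −2.64. Rpl10, Rpl36al, Rps29, Rps9 and Rpl39l did not pass. Rps29 was at 3246, 3330 and 3765 CPM against 2588, 2953 and 3630 CPM (edgeR adjusted p = 0.154). Of related lists, 17 of 19 TOP-start translation factors were higher and 1, Eif4b, lower (median 0.55), while mitochondrial ribosomal proteins had 35 of 78 higher and 13 lower (median 0.13). With all T-like cells in place of CD8 T-like ones 84 of 89 ribosomal protein genes were higher and 4 lower, against 27.6% and 26.2% of all genes.

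NK-like cells carried more ribosomal protein transcript than the cells named CD8 T-like under the TMM scaling of the test. Of 89 genes 75 were higher and 0 lower, against 15.2% and 11.8% of all genes, with a median log2 difference of 0.30. By edgeR 77 genes had an unadjusted p under 0.05, and DESeq2 called 76 higher. The count fell to 49 higher and 2 lower when libraries were scaled by total counts, to 38 without the library block, to 46 without the 12-month library and to 43 without the 20-month library. This contrast and the one above share the CD8 T-like cells, among them the sub-cluster led by Dpf3, Sim1 and Sema5a, whose name is uncertain and whose part was not tested. T-like sub-clusters that scored best for CD8 T-like but were left unnamed are outside both contrasts. Those led by Gzmm and Dapl1, by Klra6 and Klra7 and by Eya4 and Dock1 had shares above NK-like cells in every library. Those led by Ifitm1 and Gzma and by Trgc2 and Cd7 had shares below NK-like cells in every library.

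Rpl10, a large subunit protein that joins late in assembly, was at 1190, 1188 and 1298 CPM in NK-like cells and 701, 690 and 752 CPM in CD8 T-like cells, a log2 difference of 0.89 (SE 0.060, edgeR adjusted p = 7.34e-09). Its 6 named copies stood at 1551, 1527 and 1677 CPM in NK-like cells, so more of this family's counts lay in copies than in the gene. Rpl38, a large subunit protein, was at 1990, 1976 and 2259 CPM against 1473, 1555 and 1602 CPM, a log2 difference of 0.54 (SE 0.052, edgeR adjusted p = 6.5e-07). Rps15a and Rpl13a, the leading genes of the first contrast, did not pass here, with 3215, 3302 and 3966 CPM of Rps15a in NK-like cells (edgeR adjusted p = 0.952). In NK-like against CD8 T-like cells the division genes were lower, 10 of 10, and 0 of 10 higher, while assembly factors were higher in 12 of 30 and lower in 0.

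Paralogs, genes whose product can stand in for or resemble a core ribosomal protein, were among the genes that differed most between classes. Rpl22l1, the paralog of Rpl22, stood at 563, 481 and 556 CPM in CD8 T-like cells against 167, 204 and 227 CPM in monocyte/macrophage-like cells, a log2 difference of 1.34 (SE 0.078, edgeR adjusted p = 1.28e-10). Set against its partner, it gave 52.1, 50.7 and 44.8 counts per 100 counts of Rpl22 in T-like cells and 31.7, 34.5 and 33.8 in monocyte/macrophage-like cells. The ratio in T-like cells was thus lowest at 20 months while that in macrophages had no such order.

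**Figure D5:**
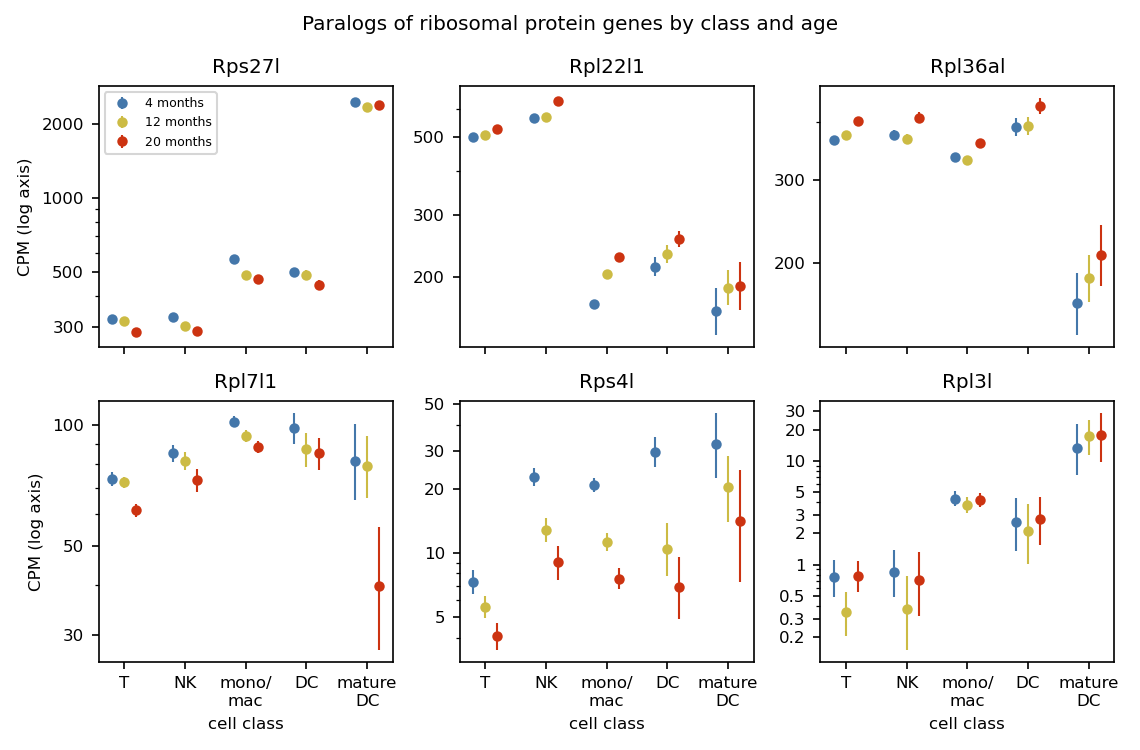
CPM (y axis, log scale) of 6 paralogs, 1 panel each, in 5 cell classes (x axis), with 1 point per library at 4, 12 and 20 months and exact Poisson 95% intervals for counting error. Rps27l stands at 2328 to 2444 CPM in mature dendritic cell-like cells and at most 568 CPM in the other classes, and Rps4l is highest at 4 months in each class.

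Rps27l had its highest level in mature dendritic cell-like cells, with 2444, 2328 and 2372 CPM. There it gave 73.4, 65.7 and 59.0 counts per 100 of Rps27, while T-like cells had 5.72, 5.29 and 4.29 and monocyte/macrophage-like cells 23.0, 18.0 and 16.0. All 3 libraries of the mature dendritic class lay above every library of the other 6 classes counted. Rpl36al, the autosomal paralog of the X-linked Rpl36a, stood at 365, 374 and 401 CPM in T-like cells and 336, 332 and 360 CPM in monocyte/macrophage-like cells, and was lower in mature dendritic cell-like cells with 164, 185 and 207 CPM.

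Rps4l, a copy of Rps4x, was low and moved against its parent. It stood at 20.8, 11.3 and 7.57 CPM in monocyte/macrophage-like cells, at 22.7, 12.8 and 9.01 CPM in NK-like cells and at 7.32, 5.56 and 4.07 CPM in T-like cells. The 4-month library was the highest in all 7 classes counted, and the 20-month library the lowest in each but regulatory T-like cells, where 12 and 10 counts gave 2.43 CPM at 12 and 2.89 CPM at 20 months. Its NK-like level exceeded that in CD8 T-like cells by 1.96 on the log2 scale (SE 0.18, edgeR adjusted p = 2.91e-07). Rpl3l, known from heart and skeletal muscle, stood at 4.33, 3.76 and 4.21 CPM in monocyte/macrophage-like cells and 0.757, 0.347 and 0.778 CPM in T-like cells. Rpl39l, known from testis, was at 0.969 (95% interval 0.662 to 1.37), 2.21 (1.83 to 2.66) and 4.38 CPM (3.79 to 5.04) in T-like cells, on 32, 115 and 197 counts. These exact Poisson intervals cover counting error only, and the 20-month library was the highest. CD8 T-like cells gave 88 of the 197 counts. In monocyte/macrophage-like cells Rpl39l was at 0.745, 1.03 and 1.97 CPM, in the same order, which CD8 T-like and NK-like cells also had. The other classes did not, each on at most 16 counts per library. Rpl39l was at 1.60, 2.83 and 2.03 CPM in regulatory T-like cells and at 0.789, 0.838 and 0.548 CPM in dendritic cell-like cells. In mature dendritic cell-like cells it was at 15.3, 0.618 and 4.69 CPM. Rpl10l rested on 4 counts over all retained cells, at which depth no difference could be detected.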

How the data were processed

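Single-cell counts per gene and barcode were deposited by the authors, 1 matrix per age. Per the submitters' processing notes they used STAR 2.7.10a and GRCm38; the counter, its use of strand and its treatment of reads with several matches are not given in the sources used here. Cells under 500 counts, over 15% mitochondrial or over 5% haemoglobin counts were removed, then the 6% per library with the highest Scrublet scores. Cells were clustered with scanpy 1.11.5 (2000 variable genes, 30 components, resolution 1.0, seed 0) without ribosomal protein genes, and named from 21 marker lists. The haemoglobin limit and the counting of related marker lists together were set after the clusters were seen.

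Counts were summed per class and library. Shares carry exact binomial and levels exact Poisson 95% intervals, which cover counting error only. Class contrasts used edgeR 4.0.16 in R 4.3.3 (filterByExpr, TMM, library block), with DESeq2 1.42.0 as an alternative. The contrast of type 2 dendritic cells was left out because no cluster was named so. Both steps were run on simulated counts with known folds. For the age folds these held counting error only, so they say nothing about differences between animals or captures. Doublets, depth, clustering, scaling, fold, weighting and left-out libraries were varied.

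Named genes are the 3 largest rises and falls at 20 over 4 months in CD8 T-like, NK-like and monocyte/macrophage-like cells, the 3 largest in each direction of each contrast, the 5 of highest level, the paralogs, and Fau and Rack1, with T-like cells and further examples added after their values were seen. The members and lists were chosen with earlier results of these data known. No column of a sample outside the series was found. A few genes are not reported here.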

Additional observations from a re-analysis of the deposited data

Results flagged for a closer look

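The share of counts from ribosomal protein genes in CD8 T-like cells was −0.062 points at 12 minus 4 months, where monocyte/macrophage-like cells of the same libraries had 1.017 points. It is listed because the values of the 2 classes, with 1 library per age each, had opposite signs. The difference was not tested. Without the sub-cluster that came almost wholly from the 12-month library the CD8 T-like value was −0.704 points over 1259 cells at 4 months and 990 at 12 months. The sub-cluster led by Dpf3, Sim1 and Sema5a gave 23015 of 10797179 CD8 T-like counts at 4 months and 608916 of 21655571 at 12 months. Its shares were 8.31% and 10.1%. Ribosomal protein genes gave 1913 and 61388 of its counts, and 1564438 and 3124333 of those of the class. The CD8 T-like value without it was not computed, so no direction is drawn from the −0.062 points.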

How the results depend on the processing

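With 1 library per age, no alternative tests an age difference against animals. Genes under 50 CPM were not counted past the fold. Over 12 alternatives in T-like, NK-like and monocyte/macrophage-like cells, 36 of 36 differences in share at 20 months and 33 of 36 at 12 months were above 0. Values are points of share at 12 and then 20 months minus 4 months, beside 0.886 and 2.44 in T-like (T), 0.0895 and 2.0 in NK-like (NK) and 1.02 and 1.74 in monocyte/macrophage-like cells (M). Values not listed under a setting stayed within the counting interval. With suspected doublets kept they were T 0.612 and 1.48, NK 0.121 and 2.04, M 0.927 and 1.68. Among cells with at least 5000 counts they were T 0.457 and 1.98, NK −0.116 and 1.82, M 0.912 and 1.66. At a clustering resolution of 0.5 they were T 0.865 and 2.41, NK 0.132 and 2.05, M 1.003 at 12 months. At a resolution of 2.0 they were T 0.554 and 2.37, M 1.003 at 12 months. With each library clustered on its own they were T −0.640 and 2.39, NK −0.0649 and 1.88, M 0.861 and 1.59. With sub-clusters weighted alike they were T 0.541 and 1.93, NK 0.137 and 2.10, M 0.683 and 1.30. With each cell weighted equally they were T 1.15 and 3.01, NK 0.213 and 2.29, M 1.06 and 1.80. With cells thinned to 2000 counts they were T 1.15 and 2.996, NK 0.187 and 2.22, M 1.03 and 1.77. With named pseudogenes added they were T 1.105 and 2.85, NK 0.163 and 2.35, M 1.22 and 2.02. Without the sub-cluster from 1 library, an alternative chosen after seeing the data, T was 1.01 at 12 months. Without mitochondrial counts they were T 2.51, NK 2.09 and M 1.79 at 20 months. With ribosomal protein genes kept in the clustering they were M 0.875 and 1.60. With the class makeup held, also chosen after seeing the data, the difference over all cells at 12 months was 0.756 instead of 1.27. For the values that turned below 0 the cause was not tested.

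The counts of genes past the fold moved most with the fold itself. Higher at 20 months in T-like cells were 32 genes, 63 at 1.1-fold, 1 at 1.5-fold, 18 with doublets kept and 20 with sub-clusters weighted alike. In NK-like cells they were 23, 56 at 1.1-fold, 0 at 1.5-fold and 35 with the total taken without these genes. In the monocyte/macrophage class they were 50, 0 at 1.5-fold and 29 with sub-clusters weighted alike. Lower at 20 months in T-like cells were 0 genes, 1 among cells with at least 5000 counts, with these genes in the clustering and at resolution 2.0, and 2 with sub-clusters weighted alike and at 1.1-fold. In NK-like cells 0 were lower, 3 at 1.1-fold and 1 at 10 CPM or more. Lower in monocyte/macrophage-like cells was 1 gene, 0 with doublets kept, with these genes in the clustering, at resolution 2.0, with separate clustering, at 1.5-fold and with the total taken without these genes, and 2 with sub-clusters weighted alike, at 1.1-fold and at 10 CPM or more. Higher at 12 months in T-like cells were 0 genes, 18 at 1.1-fold and 1 at 10 CPM or more or without the sub-cluster from 1 library, and in NK-like cells 0, with 1 at 1.1-fold and at 10 CPM or more. In the monocyte/macrophage class 8 were higher at 12 months, 5 with doublets kept or with these genes in the clustering, 4 with separate clustering, 0 with sub-clusters weighted alike and at 1.5-fold, 64 at 1.1-fold, 3 with TMM scaling and 13 with the total taken without these genes.

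In the class tests the higher count stayed between 77 and 82 in CD8 T-like against monocyte/macrophage-like cells and between 79 and 85 with all T-like cells, with 4 lower throughout. The library was the block of the pairing, since each library gives both classes. In NK-like against CD8 T-like cells the higher count was 75, 38 with no replicate block and 49 with total counts in place of TMM, and it lay between 43 and 78 when 1 library was left out. Genes lower there were 0, 2 with total counts, and 1 with doublets kept or without the sub-cluster from 1 library.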

Other observations

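B-like cells were too few for a comparison, with 25, 26 and 22 cells at 4, 12 and 20 months. Ribosomal protein genes took 16.3%, 11.5% and 16.5% of their counts, where the medians over single cells were 16.6%, 15.5% and 16.8%. The cells led by S100a8, F13a1, S100a9 and Hp, genes of neutrophils and of freshly arrived monocytes, were left unnamed, and held 8.66%, 8.90% and 9.71% over 1095, 659 and 687 cells. Gamma-delta T-like cells held 12.95%, 13.5% and 15.1%.

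Single cells spread widely around these class values. In T-like cells the middle 50% of cells at 20 months held 14.2% to 20.4% of their counts in ribosomal protein genes, against 11.9% to 16.5% at 4 months, so the ranges of single cells overlapped. For monocyte/macrophage-like cells the same ranges were 7.998% to 10.9% and 6.09% to 9.09%.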
